A study of Mus musculus with 27 samples.

Results

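Rbmx, Rbm10, Nkap and Rpl10 are 4 X-linked mouse genes whose proteins act on RNA or in the ribosome. They were taken by gene name from 2 deposited tables of allelic ratios, and all 4 are present in both. They are 4 of 270 X-linked genes in the table that holds the Spen lines (the Spen table, 17 libraries) and 4 of 254 in the table that holds the CIZ1 lines (the CIZ1 table, 10 libraries). The tables share 4 libraries, so 23 libraries in 12 groups were used.

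Chromatin-associated RNA, which remains in the insoluble pellet after nuclei are lysed and is rich in unfinished transcripts, was sequenced. The cells were female mouse embryonic stem (ES) cells of a 129S X Cast background. In all groups the Xist promoter of the 129S X chromosome was exchanged for a TetOn promoter, which doxycycline switches on, and a Bgl stem-loop was added at the end of Xist. The ratio of each gene was read as the share of allele-assigned reads that came from 129S, because Xist itself lay between 0.933 and 0.999 in the 23 libraries and the labels place the inducible Xist on 129S. A ratio of 0.5 then means equal reads from both X chromosomes, and a lower ratio means less RNA from the X that can be coated by induced Xist, relative to the Cast X. Without levels, less RNA from 129S and more RNA from Cast cannot be told apart.

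The mutant groups were a CIZ1 knockout (CIZ1 KO), a line with a mutated SPOC domain of Spen (SPOCmut) and a line labelled SpenKO, which the series text names SpenRRM. The parental inducible line (WT) was their reference. Sample titles of WT, CIZ1 KO and SpenKO carry the name BglHalo, and those of SPOCmut do not. Each line was sampled with doxycycline for 24 h and without it (0 h). SpenKO and WT were also sampled at 3 h, and CIZ1 KO and WT as neural precursor cells (NPC) at day 30. Doxycycline was given at 1.0 to 1.5 µg/mL to ES cells, and whether the NPC cultures received it is not given. SPOCmut groups held 3 libraries, 1 from each of clones C10, C2 and G1. The SpenKO 3 h group and each NPC group held 1 library, and every other group held 2. Nothing in the labels says that the libraries of the other lines came from separate cultures or clones, so p-values rest on a spread that may be technical only, and a line cannot be told apart from its genotype. ES cells grew on mouse fibroblast feeders. The tables hold ratios and not levels, so markers of feeders, ES cells or NPC were not checked, and Spen and Ciz1 are not among the measured genes.

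As background, Xist is the long RNA that coats one X chromosome of female mammals and silences most of its genes. SPEN binds Xist through its RNA recognition motifs and recruits repressor complexes through its SPOC domain, and CIZ1 anchors Xist in the nucleus. RBMX, also known as hnRNP G, binds nascent transcripts and takes part in splice site choice. RBM10 is a splicing regulator that often promotes exon skipping. NKAP is a nuclear protein that binds RNA and spliceosome components and was described as a repressor of Notch targets. RPL10 is a protein of the large ribosomal subunit that joins it late in assembly.

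The genes lie far apart on the X chromosome in the mm10 build. The table places Rbmx at chrX:57383347-57393036 on the minus strand, Rbm10 at chrX:20617502-20650905, Nkap at chrX:37126762-37150746 and Rpl10 at chrX:74270815-74273135, the last 3 on the plus strand. The starts of those 3 stand 1 base before the RefSeq start sites. The distance to Xist was 29.2 Mb for Rpl10, 46.1 Mb for Rbmx, 66.3 Mb for Nkap and 82.8 Mb for Rbm10. The length given in the table equals the whole span of each gene, 2321 bases for Rpl10, 9690 for Rbmx, 23985 for Nkap and 33404 for Rbm10. Exons of the GENCODE annotation cover 88.3% of the span of Rpl10, 44.7% of Rbmx, 18.0% of Nkap and 11.1% of Rbm10.

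Other transcripts share ground with each member. Rbmx hosts the small nucleolar RNA Snord61 and Rpl10 hosts Snora70, both on the same strand. Rbm10 overlaps the opposite-strand gene Ndufb11 by 117 bases, and Nkap overlaps Akap14 by 49 bases. The library kit marks strand, but the strand setting of the counting is not given, so reads of these overlaps cannot be told apart with certainty. By a match of gene symbols alone, the GENCODE annotation holds 7 genes named as copies of Rpl10, 2 of Rbmx, 1 of Nkap and none of Rbm10. Whether reads were shared with such copies was not tested, so the values of Rpl10, Rbmx and Nkap are uncertain in that respect.

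The 250 bases before the RefSeq start site (GRCm38.p6) are shown for Rbmx and Rpl10, the members with the largest and the smallest fall after 24 h of doxycycline in WT. All 4 members had a RefSeq promoter entry. Capitals mark matches to motifs searched on both strands, CCAAT (the CCAAT box), GGGCGG (the GC box), CCGGAA (the core bound by ETS factors) and CCGCCAT (the core bound by YY1). TATAAA (the TATA box) was searched too.
Rbmx, chrX:57393037-57393286, minus strand: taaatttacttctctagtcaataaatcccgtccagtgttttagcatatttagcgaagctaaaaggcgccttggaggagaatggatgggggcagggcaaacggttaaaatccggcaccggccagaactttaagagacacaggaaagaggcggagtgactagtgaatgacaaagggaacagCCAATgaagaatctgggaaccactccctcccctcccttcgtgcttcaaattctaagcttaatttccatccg
Rpl10, chrX:74270566-74270815, plus strand: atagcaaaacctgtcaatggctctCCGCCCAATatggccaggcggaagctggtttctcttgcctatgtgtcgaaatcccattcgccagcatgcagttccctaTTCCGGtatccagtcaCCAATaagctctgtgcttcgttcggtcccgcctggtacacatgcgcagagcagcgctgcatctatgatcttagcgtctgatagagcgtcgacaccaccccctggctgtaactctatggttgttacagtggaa
Rbmx held 1 match, a CCAAT whose first base is at -71 from the start site. Rpl10 held a CCAAT at -132, an ETS core at -148 and a GC box at -226 that overlaps a CCAAT at -222. Nkap held a CCAAT at -150. Rbm10 held a YY1 core at -249 and GC boxes at -216 and -143, with no CCAAT. None of the 4 windows held TATAAA. Of 27025 RefSeq promoters of this length, 34.5% held CCAAT, 32.9% the GC box, 12.2% the ETS core, 2.19% the YY1 core and 13.0% TATAAA. Among the 211 measured X-linked genes with a promoter entry the shares were 47.9%, 55.9%, 17.1%, 6.16% and 6.64% in the same order. These are matches of letters, and no binding data bear on them. GC content of the windows was 55.6% in Rbm10, 52.8% in Rpl10, 46.8% in Rbmx and 42.8% in Nkap.

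Before induction, 3 of the members lay close to 0.5 and Rpl10 lay above it. Over the 9 libraries at 0 h, Rbmx ranged between 0.472 and 0.528 with a median of 0.510, and Rbm10 between 0.479 and 0.526 with a median of 0.502. Nkap ranged between 0.490 and 0.587 with a median of 0.532. Rpl10 ranged between 0.613 and 0.736 with a median of 0.666, so even its lowest library lay above the highest library of the other 3 members. In the Spen table, 18 of 270 genes (6.67%) were above 0.6 in every 0 h library, Rpl10 among them, and 16 genes had a higher mean 0 h ratio than Rpl10.

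None of the members differed at 0 h between a mutant line and WT by limma's moderated test with Benjamini-Hochberg adjustment over all genes of the table, at adjusted p under 0.05 (the test used for every call that follows). No gene of the tables did, which is 0% higher and 0% lower in each of the 3 lines. At an unadjusted p under 0.05, 12 genes were higher and 4 lower in CIZ1 KO, 26 higher and 8 lower in SPOCmut, and 18 higher and 4 lower in SpenKO. Rpl10 had 0.675 and 0.736 in CIZ1 KO at 0 h, against 0.630 and 0.628 in WT at 0 h. Its libraries did not overlap between the lines, with a difference of 0.0759 ± 0.0245 (SE), unadjusted p = 0.0221 and adjusted p = 0.663 by limma. An exact two-sided permutation test over these libraries gave p = 0.333, the lowest possible for 2 against 2. The difference was 0.107 without the first CIZ1 KO 0 h library and 0.0453 without the second.

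**Figure D1:**
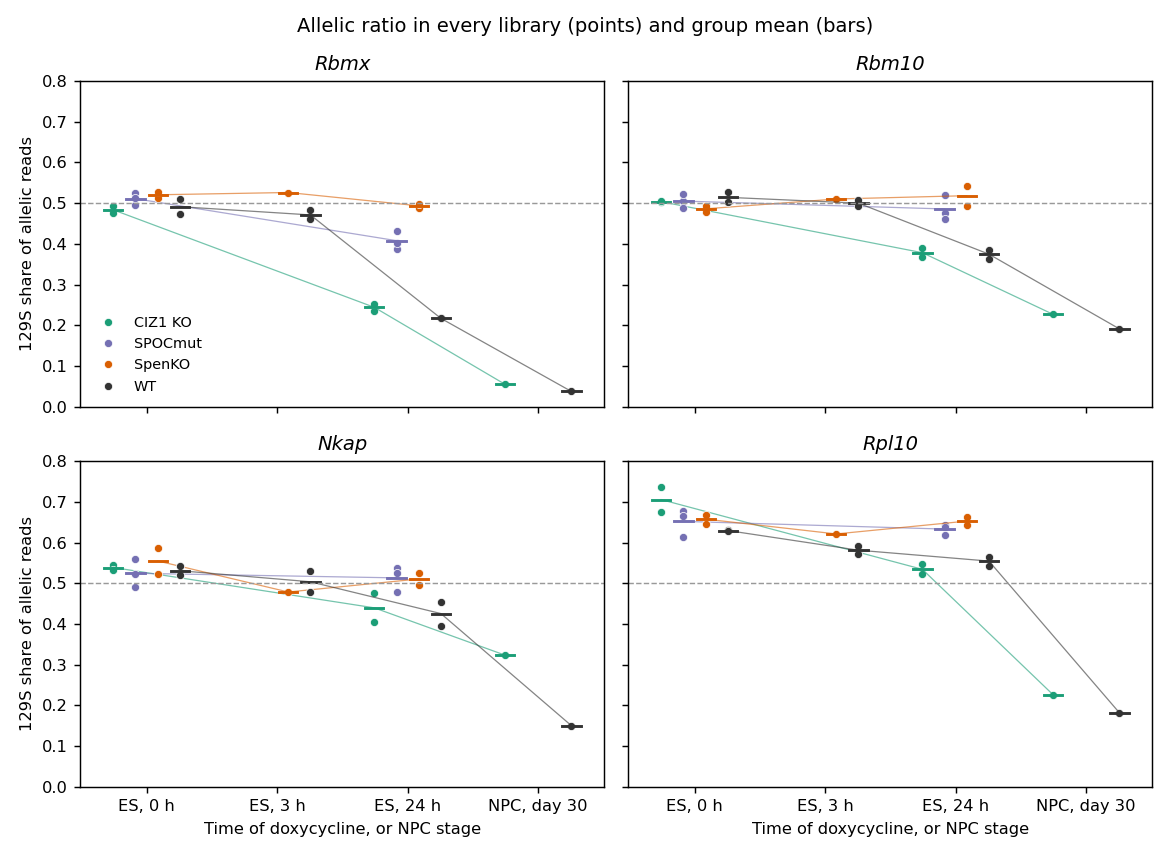
Allelic ratio (129S share of allele-assigned reads, vertical axis) of each gene in every library (points) with group means (bars), by time of doxycycline or NPC stage, for CIZ1 KO, SPOCmut, SpenKO and WT. WT and CIZ1 KO points move down at 24 h and further in NPC, and Rpl10 starts above 0.6 in all lines. SpenKO points at 24 h stay near their 0 h level for Rbmx, Rbm10 and Rpl10, and the Nkap mean is lower with a wide spread.

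After 24 h of Xist induction in WT the share of 129S RNA fell for all 4 members, most for Rbmx and least for Rpl10. Rbmx, the hnRNP G gene, had ratios of 0.217 and 0.217 in WT at 24 h, against 0.510 and 0.472 in WT at 0 h. Rbm10 had 0.386 and 0.364 in WT at 24 h, against 0.502 and 0.526 in WT at 0 h. Nkap had 0.455 and 0.396 in WT at 24 h, against 0.541 and 0.520 in WT at 0 h. Every 24 h library of these 3 genes was below every 0 h library, and the 2 Rbmx libraries at 24 h were nearly equal. Rpl10 had 0.565 and 0.544 in WT at 24 h, against 0.630 and 0.628 in WT at 0 h. Its groups did not overlap either, yet its ratio after 24 h of doxycycline was still above 0.5. In these bulk libraries a smaller share in every cell and a full loss in some of the cells cannot be told apart.

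The change of Rbmx was -0.274 ± 0.0175 (SE, n = 2 libraries each, adjusted p = 1.01e-07 by limma), with a 95% interval of -0.313 to -0.236. Rbm10 changed by -0.140 ± 0.0216 (limma adjusted p = 1.07e-04; interval -0.187 to -0.0918), Nkap by -0.105 ± 0.0320 (limma adjusted p = 0.00962; interval -0.176 to -0.0345) and Rpl10 by -0.0750 ± 0.0198 (limma adjusted p = 0.00431; interval -0.119 to -0.0313). A fall was the rule on this chromosome, with 88.9% of the 270 genes lower and 0% higher, so 4 of 4 is near the background. The members differed in size: the median change of all genes was -0.197, and Rbmx ranked 60 of 270 from the largest fall, Rbm10 200, Nkap 229 and Rpl10 249. As the ratio of 129S to Cast RNA, Rbmx kept 28.7% of its 0 h value at 24 h, Rbm10 56.6%, Nkap 65.5% and Rpl10 73.2%, beside a median of 42.1% over all genes. The Nkap call rests on single libraries: without the first 0 h library its adjusted p was 0.0517, and without the second 24 h library the change was -0.0759 with an adjusted p of 0.0824, by limma. An exact two-sided permutation test over 2 against 2 libraries cannot go below 0.333, the value each member gave. The share of all genes whose libraries separate without overlap was not counted, in this or any other comparison.

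**Figure D2:**
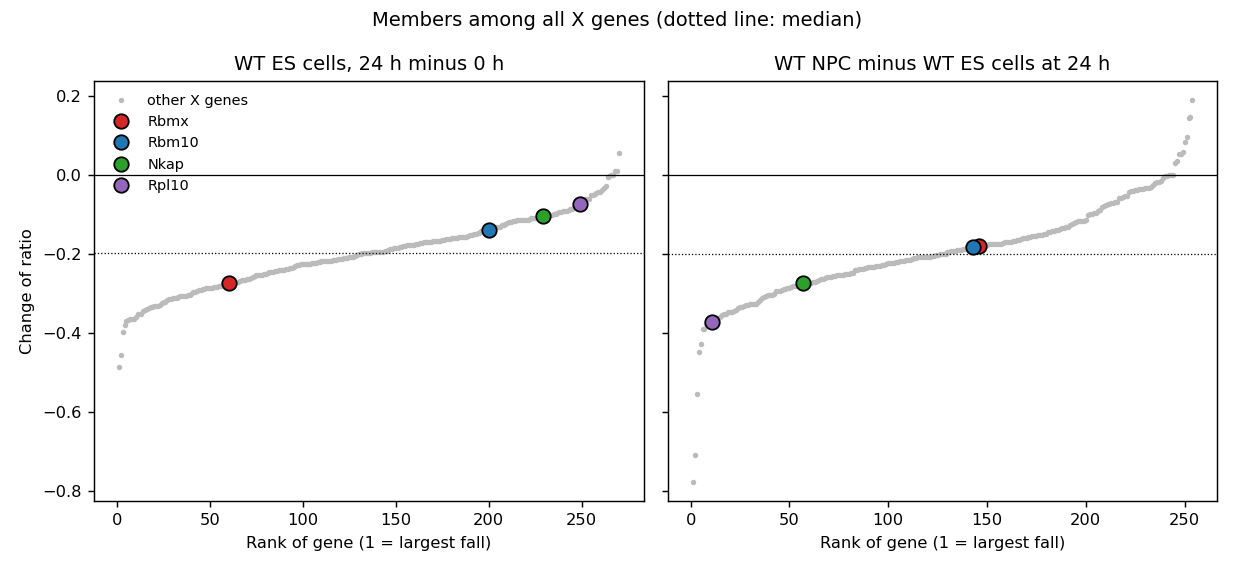
All measured X-linked genes ranked by change of allelic ratio, left for WT ES cells at 24 h minus 0 h (270 genes), right for WT NPC minus WT ES cells at 24 h (254 genes), with the 4 genes in colour and the median dotted. On the left Rbmx lies below the median of -0.197 and the other 3 above it, and on the right Rpl10 has rank 11. On the right a fall cannot exceed the 24 h ratio of the gene, which was 0.554 for Rpl10 and 0.217 for Rbmx.

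The 3 h libraries of WT were close to those at 0 h. Rbmx had 0.482 and 0.460 in WT at 3 h, Rbm10 0.492 and 0.508, Nkap 0.530 and 0.478, and Rpl10 0.591 and 0.571. No member passed the test at 3 h, where 17% of all genes were lower and 5.19% higher than at 0 h. Rpl10 came nearest, with -0.0483 ± 0.0198 (SE), unadjusted p = 0.0334 and adjusted p = 0.109 by limma, and its 3 h libraries lay below both 0 h libraries. The other 3 overlapped between 3 h and 0 h, with changes of -0.0202 for Rbmx, -0.0143 for Rbm10 and -0.0272 for Nkap, beside a median of -0.0205 over all genes.

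Between 3 h and 24 h in WT, Rbmx, Rbm10 and Nkap fell and Rpl10 did not pass the test, against a background of 85.6% of genes lower and 0.37% higher. The change was -0.254 ± 0.0175 for Rbmx (limma adjusted p = 2.32e-07), -0.125 ± 0.0216 for Rbm10 (limma adjusted p = 2.69e-04) and -0.0781 ± 0.0320 for Nkap (limma adjusted p = 0.0394). Nkap lost its call without the first 3 h library (limma adjusted p = 0.230) and without the second 24 h library (-0.0487, limma adjusted p = 0.248). The Rpl10 difference was -0.0267 ± 0.0198 (limma adjusted p = 0.219), with an interval of -0.0705 to 0.0170. These 3 WT comparisons share libraries.

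In SpenKO the 24 h ratios of Rbmx, Rbm10 and Rpl10 stayed near those at 0 h, and the result for Nkap was less certain. Rbmx had 0.513 and 0.528 at 0 h, 0.526 at 3 h, and 0.488 and 0.498 at 24 h. Rbm10 had 0.493 and 0.479 at 0 h, 0.510 at 3 h, and 0.494 and 0.543 at 24 h. Both 24 h libraries were below both 0 h libraries for Rbmx and, the lower one only just, above them for Rbm10. The exact two-sided permutation p was 0.333 for each of these genes, the lowest possible for 2 against 2 libraries. How many of all genes separate in this way was not counted. Nkap had 0.522 and 0.587 at 0 h, 0.478 at 3 h, and 0.497 and 0.524 at 24 h. Rpl10 had 0.647 and 0.668 at 0 h, 0.621 at 3 h, and 0.642 and 0.663 at 24 h. For Nkap and Rpl10 the 24 h and 0 h libraries overlapped, and the lone 3 h library was the lowest of the 5 for both.

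No member passed the test at 24 h in SpenKO, by the adjusted or the unadjusted p, and 0.741% of all genes were lower and 0% higher (without adjustment, 18 and 1 genes had p under 0.05). The changes were -0.0271 for Rbmx (95% interval -0.0658 to 0.0116), 0.0323 for Rbm10 (-0.0155 to 0.0800), -0.0443 for Nkap (-0.115 to 0.0266) and -0.00485 for Rpl10 (-0.0486 to 0.0389). The Nkap interval includes the WT change of -0.105, and Nkap ranked 38 of 270 from the lowest change in SpenKO. The 3 h differences ran between -0.0762 for Nkap and 0.0242 for Rbm10, none passing the test, where 0.37% of genes were lower and 0% higher, and the single 3 h library was taken to have the spread of the rest. The response at 3 h, SpenKO minus WT, was 0.0258 for Rbmx, 0.0384 for Rbm10, -0.0490 for Nkap and 0.0119 for Rpl10, none past the test, where 2.59% of genes were higher and 0% lower.

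At 24 h the SpenKO ratio was above the WT ratio for all 4 members, as for 88.1% of genes (0% lower). The difference in level was 0.276 ± 0.0175 for Rbmx (limma adjusted p = 1.10e-07), 0.144 ± 0.0216 for Rbm10 (limma adjusted p = 8.74e-05), 0.0982 ± 0.0198 for Rpl10 (limma adjusted p = 7.38e-04) and 0.0850 ± 0.0320 for Nkap (limma adjusted p = 0.0272). The Nkap difference lost its call without the second SpenKO 24 h library (limma adjusted p = 0.127) and without the second WT 24 h library (0.0556, limma adjusted p = 0.189).

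The test of the difference in response, SpenKO minus WT in the 24 h change, was passed by Rbmx, Rbm10 and Rpl10 and not by Nkap, where 76.7% of genes had a positive difference that passed and 0% a negative one. It was 0.247 ± 0.0247 for Rbmx (limma adjusted p = 8.53e-06), 0.172 ± 0.0305 for Rbm10 (limma adjusted p = 4.75e-04) and 0.0702 ± 0.0279 for Rpl10 (limma adjusted p = 0.0399). Rpl10 lost this call in 5 of the 8 fits that leave out 1 library, with differences of 0.0593 without the first SpenKO 0 h library, 0.0598 without the second SpenKO 24 h library, 0.0692 and 0.0712 without either WT 0 h library and 0.0593 without the second WT 24 h library (limma adjusted p between 0.0744 and 0.117). Nkap had 0.0611 ± 0.0453 (limma adjusted p = 0.228), with an interval of -0.0391 to 0.161, and the median over all genes was 0.183. The Nkap value was 0.0287 without the first SpenKO 0 h library, 0.0934 without the second, and 0.0317 without the second WT 24 h library, none past the test.

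In the SPOC domain mutant Rbmx fell after 24 h, and the other members did not pass the test. Rbmx had 0.388, 0.433 and 0.403 in SPOCmut at 24 h (clones C10, C2 and G1), against 0.524, 0.495 and 0.514 in SPOCmut at 0 h. All 24 h libraries were below all 0 h libraries, and each clone fell, by 0.136, 0.0625 and 0.111. The share of all genes that separate in this way, or fall in every clone, was not counted. Rbm10 had 0.476, 0.519 and 0.462 in SPOCmut at 24 h, against 0.506, 0.521 and 0.488 at 0 h. Nkap had 0.478, 0.537 and 0.525 in SPOCmut at 24 h, against 0.490, 0.523 and 0.560 at 0 h. Rpl10 had 0.643, 0.638 and 0.618 in SPOCmut at 24 h, against 0.613, 0.676 and 0.666 at 0 h. For these 3 genes the groups overlapped, and for Nkap and Rpl10 the clones moved in different directions.

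Rbmx changed by -0.103 ± 0.0143 in SPOCmut (SE, n = 3 clones, limma adjusted p = 1.44e-04; 95% interval -0.135 to -0.0716). It was the 1 member of 4 that passed, where 49.6% of genes were lower and 0% higher and the median change was -0.0658. The other changes were -0.0193 for Rbm10 (interval -0.0583 to 0.0197), -0.0113 for Nkap (-0.0691 to 0.0466) and -0.0189 for Rpl10 (-0.0546 to 0.0168). Without clone C10 at 0 h, Rpl10 changed by -0.0382 with an adjusted p of 0.0364 by limma. Rbmx kept 65.9% of its 0 h ratio of 129S to Cast RNA in SPOCmut at 24 h, and Rbm10, Nkap and Rpl10 kept 92.6%, 95.6% and 92.1%, beside a median of 75.6% over all genes.

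The SPOCmut level at 24 h was above that of WT for all 4 members, as for 78.9% of genes (0.37% lower), with differences of 0.191 ± 0.0160 for Rbmx, 0.111 ± 0.0197 for Rbm10, 0.0877 ± 0.0292 for Nkap and 0.0786 ± 0.0180 for Rpl10. Their limma adjusted p values were 1.69e-06, 4.05e-04, 0.0176 and 0.00237. The Nkap difference lost its call without the second WT 24 h library (0.0583, limma adjusted p = 0.164) and without clone C2 at 24 h (limma adjusted p = 0.0548). The response at 24 h differed from that of WT for Rbmx by 0.171 ± 0.0226 (limma adjusted p = 1.14e-04) and for Rbm10 by 0.120 ± 0.0279 (limma adjusted p = 0.00387). Positive differences passed for 58.5% of genes and negative ones for 0%. Nkap (0.0941 ± 0.0413, limma adjusted p = 0.0717) and Rpl10 (0.0561 ± 0.0255, limma adjusted p = 0.0798) did not pass. With a block for the SPOCmut clones, which are the same line at both times, the Nkap adjusted p was 0.0551, and with a replicate block in every line it was 0.0107, by limma. Nkap passed without clone C10 at 24 h (0.112, limma adjusted p = 0.0409), without clone G1 at 0 h (0.112, limma adjusted p = 0.0435) and without the first WT 24 h library (0.123, limma adjusted p = 0.0434). Rpl10 passed without clone C2 at 0 h (0.0683, limma adjusted p = 0.0401). SpenKO and SPOCmut were set against the same WT libraries.

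Set directly against SpenKO, SPOCmut was lower for Rbmx at 24 h, with a difference of -0.0856 ± 0.0160 (limma adjusted p = 0.00152), where 40.7% of genes were lower and 1.11% higher. The other members differed by -0.0326 for Rbm10, 0.00270 for Nkap and -0.0196 for Rpl10, none past the test. The difference in response was -0.0760 ± 0.0226 for Rbmx (limma adjusted p = 0.0390; interval -0.126 to -0.0261), and 23% of genes had a negative difference that passed and 0% a positive one. With a block for the SPOCmut clones alone the adjusted p was 0.0617, and with the replicate block in every line 0.0766, by limma. The difference ran between -0.0884 and -0.0661 when single libraries were left out, and it lost its call in 8 of those 10 fits (limma adjusted p between 0.0629 and 0.106). The other fits left out clone C2 at 0 h or at 24 h. Rbm10 had -0.0516 (interval -0.113 to 0.0101), Nkap 0.0330 (-0.0585 to 0.124) and Rpl10 -0.0141 (-0.0705 to 0.0424).

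**Figure D3:**
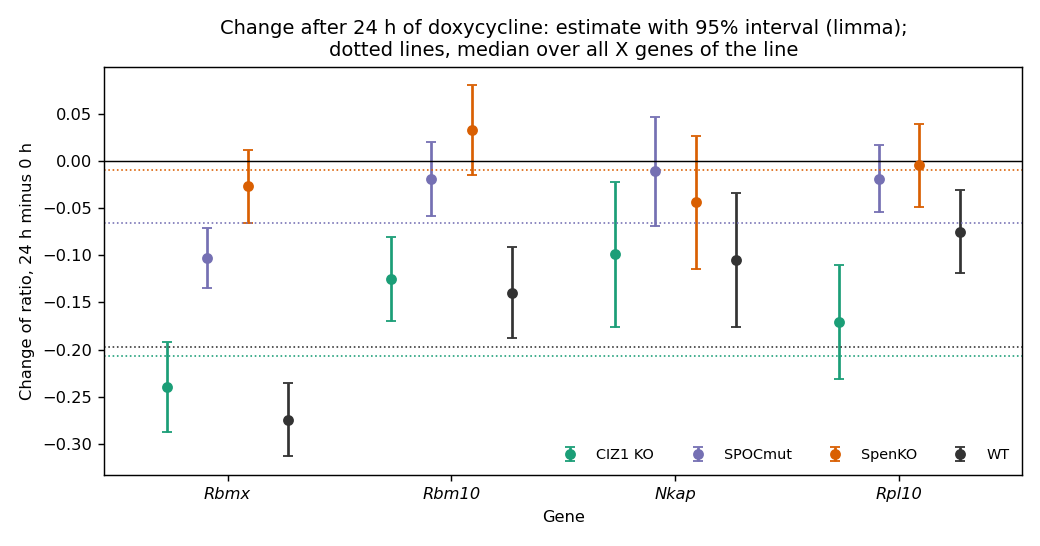
Change of allelic ratio at 24 h minus 0 h (vertical axis) for each gene in CIZ1 KO, SPOCmut, SpenKO and WT, as the limma estimate with its 95% interval; dotted lines give the median over all measured X-linked genes in each line. The SPOCmut interval lies below 0 for Rbmx and spans 0 for the other 3 genes, and all SpenKO intervals span 0.

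In CIZ1 KO all 4 members fell with Xist induction, and they were lower still in NPC. Rbmx had 0.475 and 0.493 at 0 h, 0.235 and 0.253 at 24 h, and 0.0552 in NPC. Rbm10 had 0.502 and 0.505 at 0 h, 0.390 and 0.367 at 24 h, and 0.227 in NPC. Nkap had 0.545 and 0.532 at 0 h, 0.404 and 0.475 at 24 h, and 0.323 in NPC. Rpl10 had 0.675 and 0.736 at 0 h, 0.546 and 0.522 at 24 h, and 0.226 in NPC. For every member the groups did not overlap, and the order of stages was the same. Between 24 h and 0 h the exact two-sided permutation p was 0.333 for each member, the lowest possible for 2 against 2 libraries. The share of all genes that separate in this way was not counted.

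The 24 h change in CIZ1 KO was -0.240 ± 0.0193 for Rbmx (limma adjusted p = 1.37e-04), -0.171 ± 0.0245 for Rpl10 (limma adjusted p = 0.00106), -0.125 ± 0.0180 for Rbm10 (limma adjusted p = 0.00107) and -0.0991 ± 0.0312 for Nkap (limma adjusted p = 0.0249). In this line 85% of 254 genes were lower and 0% higher, with a median change of -0.207. The Nkap call was lost in 3 of the 4 fits that leave out 1 CIZ1 KO library, with limma adjusted p values of 0.0836 without the first 0 h library, 0.0607 without the second, and 0.118 without the first 24 h library, where the change was -0.0636. Rpl10 ranked 164 of 254 from the largest fall here.

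No gene, and so no member, passed the test of the difference in response between CIZ1 KO and WT, which is 0% in either direction; at an unadjusted p under 0.05 limma gave 4 genes with a larger and 7 with a smaller fall in CIZ1 KO. Rpl10 was one of the 4, with a difference of -0.0962 ± 0.0347, an interval of -0.182 to -0.0106, unadjusted p = 0.0334 and adjusted p = 0.851. Its 0 h libraries were higher in CIZ1 KO than in WT, as given above, while the 24 h libraries overlapped, with 0.546 and 0.522 in CIZ1 KO, against 0.565 and 0.544 in WT. By definition the Rpl10 difference in response is its level difference at 24 h (-0.0202) minus that at 0 h (0.0759), and the 0 h term is the larger in size. The part of each term was not tested. The differences in response were 0.0348 for Rbmx (interval -0.0323 to 0.102), 0.0143 for Rbm10 (-0.0485 to 0.0771) and 0.00624 for Nkap (-0.102 to 0.115). The 24 h levels differed from WT by 0.0271 for Rbmx, 0.00357 for Rbm10, 0.0141 for Nkap and -0.0202 for Rpl10, none past the test, and 0% of genes passed either way (without adjustment, 4 lower and 21 higher genes had p under 0.05).

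In the NPC libraries Rpl10 no longer had the highest ratio. In CIZ1 KO NPC Rbmx was lowest with 0.0552, and Rpl10 with 0.226, Rbm10 with 0.227 and Nkap with 0.323 followed. In WT NPC Rbmx was again lowest with 0.0374, and Nkap had 0.150, Rpl10 0.182 and Rbm10 0.191. The median over all genes was 0.0830 in CIZ1 KO NPC and 0.0546 in WT NPC, so Rbmx lay below it and the other 3 members above it in both lines. Each NPC group is 1 library, so the 2 lines were not compared in NPC with a test.

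Set against 24 h ES cells of the same line, all 4 members had lower ratios in NPC of both lines. NPC differ from these ES cells in cell type and time at once, and perhaps in doxycycline, so these cannot be told apart. The same holds for NPC set against 0 h. Each NPC group is 1 library without a replicate, so the p-values here rest on taking that library to have the spread of the other groups. The background was 76% lower and 0% higher in CIZ1 KO, and 70.5% lower and 0.394% higher in WT. In CIZ1 KO the difference was -0.308 ± 0.0301 for Rpl10 (limma adjusted p = 4.56e-04), -0.189 ± 0.0236 for Rbmx (limma adjusted p = 9.80e-04), -0.151 ± 0.0221 for Rbm10 (limma adjusted p = 0.00159) and -0.116 ± 0.0382 for Nkap (limma adjusted p = 0.0331), beside a median of -0.195. The Nkap value in CIZ1 KO was -0.0806 with a limma adjusted p of 0.101 without the second 24 h library, and its call was also lost when the libraries of the comparison were fitted alone (limma adjusted p = 0.119). In WT the difference was -0.373 ± 0.0301 for Rpl10 (limma adjusted p = 2.04e-04), rank 11 of 254 from the largest fall. It was -0.275 ± 0.0382 for Nkap (limma adjusted p = 0.00114), -0.184 ± 0.0221 for Rbm10 (limma adjusted p = 6.63e-04) and -0.180 ± 0.0236 for Rbmx (limma adjusted p = 9.39e-04), beside a median of -0.201. The mean ratio of the 24 h ES cells set against NPC was 0.244 for Rbmx and 0.534 for Rpl10 in CIZ1 KO, and 0.217 for Rbmx and 0.554 for Rpl10 in WT. A gene cannot fall by more than its 24 h ratio, so the room to fall differed between genes. The sizes and ranks of these falls therefore do not order the genes by degree of silencing. As the ratio of 129S to Cast RNA, Rbmx went from 0.277 at 24 h to 0.0389 in WT NPC, and Rpl10 from 1.24 to 0.222. Relative to 0 h, CIZ1 KO NPC kept 6.24% of the ratio of 129S to Cast RNA for Rbmx, 12.2% for Rpl10, 29.0% for Rbm10 and 40.9% for Nkap, beside a median of 8.26% over all genes. WT NPC kept 4.02% for Rbmx, 13.1% for Rpl10, 15.6% for Nkap and 22.3% for Rbm10, beside a median of 5.88%.

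The spread between libraries of a group, pooled over the groups of the Spen table, was 0.0170 for Rbmx, 0.0197 for Rpl10, 0.0219 for Rbm10 and 0.0337 for Nkap as an SD of the ratio. The median of all genes was 0.0278, so Nkap was the noisiest member and the 1 above that median. The tables give no read counts, so the depth behind each ratio is unknown and no interval for counting error is given.

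Other X-linked genes of RNA processing and translation were lower at 24 h in WT about as often as all genes of the chromosome. Of a list of 47 such genes, 19 besides the members were measured in the Spen table and 20 in the CIZ1 table. At 24 h in WT, 17 of the 19 were lower and 0 higher, where 88.9% of all genes were lower, with a median change of -0.140 beside -0.197 over all genes. The pair that did not pass was Ftsj1 (-0.0813, adjusted p = 0.114 by limma), a tRNA methyltransferase gene, and Pqbp1 (-0.185, adjusted p = 0.0538 by limma), a gene of a spliceosome-associated protein. The largest falls were those of Zc3h12b, a gene of a CCCH zinc finger protein, with -0.339, and Rbmx2, a spliceosome gene, with -0.249. The smallest were those of Dkc1, the dyskerin gene of snoRNA-guided pseudouridylation, with -0.0619, and Eif2s3x, a translation initiation factor gene, with -0.0804. The estimate for Rbmx lay between those of Zc3h12b and Rbmx2, and that of Rpl10 between those of Dkc1 and Eif2s3x; these genes were not tested against each other. In SpenKO the 19 genes changed by between -0.0519 and 0.0576, with a median of -0.00560.

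In SPOCmut 7 of the 19 were lower at 24 h, where 49.6% of all genes were, with a median of -0.0212, beside -0.0658 over all genes. Zc3h12b changed by -0.196 and Rbmx2 by -0.107, both past the test, and Dkc1 by -0.0106 and Eif2s3x by -0.00036, neither past it. In CIZ1 KO 18 of 20 were lower at 24 h, where 85% of all genes were, with a median of -0.138. In NPC set against 24 h, 17 of 20 were lower in CIZ1 KO, where 76% of all genes were, and 15 of 20 in WT, where 70.5% were. These CIZ1 KO and NPC counts lie near the background. Dkc1, which like Rpl10 had a small change at 24 h in WT, changed by -0.330 between 24 h and NPC in CIZ1 KO and by -0.335 in WT. Eif2s3x, which also had a small change at 24 h in WT, changed by only -0.0613 in CIZ1 KO and -0.155 in WT. The medians over all genes were -0.195 in CIZ1 KO and -0.201 in WT. Each NPC group is 1 library.

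The nearest measured genes on each side of a member did not always move with it. Next to Rbmx, Gm364 changed by -0.241, Arhgef6, a guanine nucleotide exchange factor gene, by -0.194 and Htatsf1, a splicing-associated gene, by -0.159 in WT at 24 h, all past the test. In SPOCmut these 3 genes fell as well, with changes of -0.0740 for Gm364, -0.117 for Arhgef6 and -0.0813 for Htatsf1. Next to Rbm10, Jade3 (-0.225), Uba1, the ubiquitin-activating enzyme gene (-0.125), and Cdk16 (-0.161) fell in WT. Ndufb11, which overlaps Rbm10 and encodes a subunit of respiratory complex I, had -0.0614 with an adjusted p of 0.0712 by limma.

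Next to Nkap, Upf3b, a gene of nonsense-mediated decay, fell by 0.115, and the homeobox genes Rhox5 and Rhox6 fell by 0.237 and 0.308 in WT at 24 h. Ube2a, the fourth of these neighbours, is listed at 1 in all 17 libraries of the Spen table. Next to Rpl10, Emd, the emerin gene, changed by -0.116, Taz, the tafazzin gene, by -0.194, Flna, the filamin A gene, by -0.276 and Dnase1l1 by -0.298. All 4 passed the test, each with a larger estimate than the -0.0750 of Rpl10. Dnase1l1 varied widely, with an SE of 0.0972. In SPOCmut, Flna (-0.143) and Dnase1l1 (-0.224) fell, and Emd (-0.00736) and Taz (-0.0213) did not pass.

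Within 5 Mb, the median WT change at 24 h was -0.241 over 23 genes around Rbmx, -0.158 over 25 around Rbm10, -0.227 over 17 around Nkap and -0.186 over 66 around Rpl10. Rbmx fell by more than the median of its surroundings and the other 3 members by less. In SPOCmut the median was -0.112 around Rbmx, with 18 of 23 genes past the test, and -0.0323 around Nkap, with 1 of 17. It was -0.0377 around Rbm10, with 7 of 25, and -0.0596 around Rpl10, with 31 of 66. Over all genes 49.6% passed in SPOCmut, so the count around Rpl10 is near the background. These windows were measured between the lower coordinates of the genes in the table, whatever the strand. These genes share the libraries with the members.

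**Figure D4:**
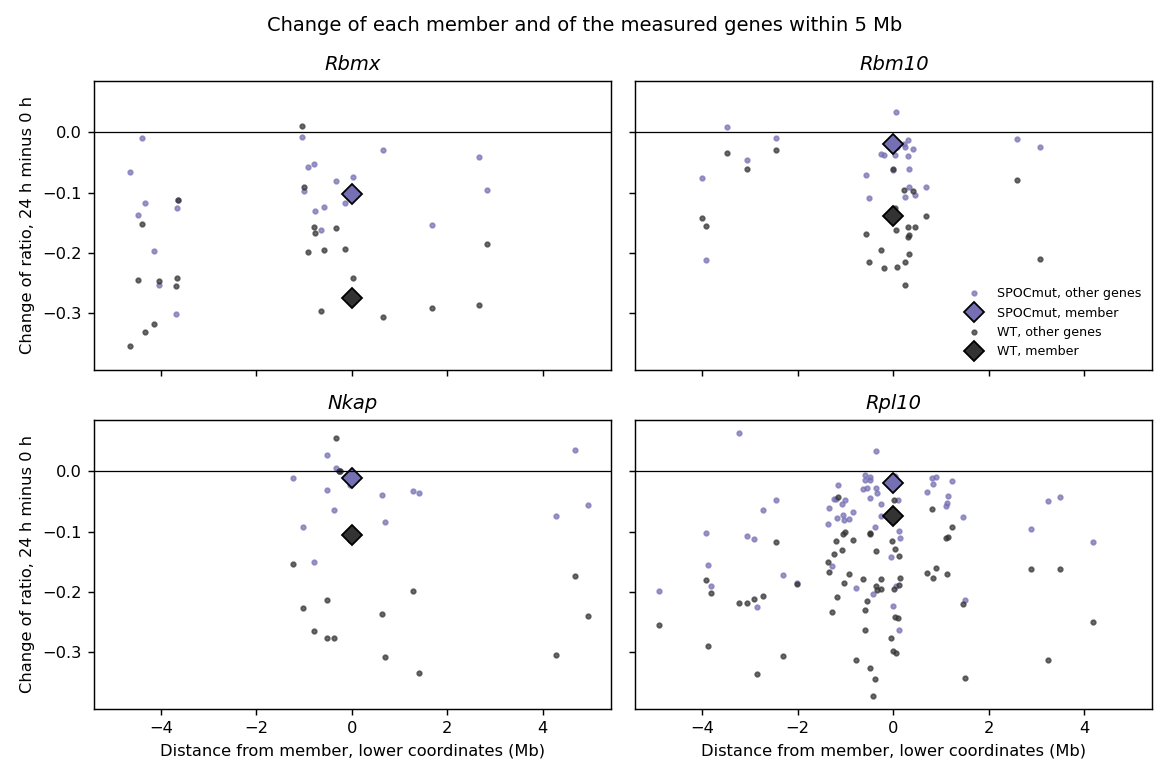
Change of allelic ratio at 24 h minus 0 h (vertical axis) for each member (diamond) and for the measured genes within 5 Mb of it (dots), by distance in Mb between lower coordinates, in SPOCmut and WT. Rbmx lies below the median of its surroundings in WT (-0.274 beside -0.241), and Rpl10 lies near the top of its own (-0.0750 beside -0.186).

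Likeness of pattern was measured as the root mean square difference of the ratio over the 8 group means of the Spen table, where the points share libraries. For Rbmx the closest genes were Amer1 (0.0132, Pearson r = 0.99), Pdk3 (0.0190, r = 0.98) and Med12 (0.0254, r = 0.97), which changed by -0.268, -0.274 and -0.284 at 24 h in WT. For Rbm10 they were Ddx3x (0.0156, r = 0.97), Idh3g (0.0159, r = 0.97) and Brcc3 (0.0171, r = 0.95). By the mean absolute difference instead, Ddx3x was not among the 3 genes closest to Rbm10. Nkap was closest to Brcc3 (0.0225, r = 0.84), Idh3g (0.0245, r = 0.81) and Ssr4 (0.0256, r = 0.80), so Nkap and Rbm10 shared 2 of their 3 closest genes. Rpl10 had no gene as close: Utp14a differed by 0.0353 (r = 0.70), Xlr3b by 0.0430 (r = 0.66) and Pnma5 by 0.0442 (r = 0.87).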

How the data were processed

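Libraries of chromatin-associated RNA were stranded, per the labels' protocols. Per the submitters' processing notes the build was mm10 and the tools, with no order, included STAR 2.4.2a, Bowtie2 2.3.2, edgeR, featureCounts, bedtools and SAMtools. How the authors filtered genes and set the strand is not given. Each deposited value is an allelic ratio, a fraction between 0 and 1, and was used without scaling or filter; depth is unknown. A column marked Dox without a time was read as 24 h. No value is missing, and the 4 libraries in both tables hold identical values for 248 shared genes. The chromosome 15 table is not used here.

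All libraries of a table entered 1 limma 3.58.1 fit (R 4.3.3) with 1 mean per group, no covariate and empirical Bayes moderation; p-values were adjusted by Benjamini-Hochberg over 270 or 254 genes and called under 0.05. WT comparisons at 0, 3 and 24 h come from the Spen table, CIZ1 and NPC comparisons from the CIZ1 table. Responses were contrasts of changes. The script was tested on simulated data. Alternatives were a logit scale, the libraries of a comparison alone, trended robust moderation, Benjamini-Yekutieli adjustment, a 0 h ratio between 0.2 and 0.8, the other table, single libraries left out and a replicate block. A clone block and crossed CIZ1 KO numbers were chosen after seeing the data.

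SPOCmut numbers mark the same clone in both groups, per the labels; correlations of same-clone deviations from the group means were -0.0170, -0.113 and 0.148. Named were the members, the list genes with the 2 largest and 2 smallest WT changes at 24 h, 2 neighbours per side (1 is not reported here) and the 3 genes most alike; Ftsj1 and Pqbp1 were named after their values were seen. The members and lists were chosen with earlier results of these data known.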

Additional observations from a re-analysis of the deposited data

Results flagged for a closer look

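A difference in response to 24 h of doxycycline between lines, tested by limma with Benjamini-Hochberg adjustment as the difference itself, marked 6 results. Between SpenKO and WT the difference was 0.247 for Rbmx (change of -0.0271 in SpenKO, against -0.274 in WT, adjusted p = 8.53e-06), 0.172 for Rbm10 (0.0323 in SpenKO, against -0.140 in WT, adjusted p = 4.75e-04) and 0.0702 for Rpl10 (-0.00485 in SpenKO, against -0.0750 in WT, adjusted p = 0.0399). Between SPOCmut and WT it was 0.171 for Rbmx (-0.103 in SPOCmut, against -0.274 in WT, adjusted p = 1.14e-04) and 0.120 for Rbm10 (-0.0193 in SPOCmut, against -0.140 in WT, adjusted p = 0.00387). Between SPOCmut and SpenKO it was -0.0760 for Rbmx (-0.103 in SPOCmut, against -0.0271 in SpenKO, adjusted p = 0.0390). The shares of genes that passed in the same direction were 76.7%, 58.5% and 23% in these 3 comparisons.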

How the results depend on the processing

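The members' differences were recomputed under 932 alternatives; 860 kept direction and side of the threshold, 40 lost the call, 6 gained it and 26 changed sign, all of those among differences that did not pass the test. Nothing changed side or sign on the logit scale, with trended robust moderation, with the 0 h ratio filter or in the CIZ1 table. With Benjamini-Yekutieli adjustment, which is stricter by construction, the call was lost for Nkap in the changes of -0.105 (WT 24 h minus 0 h), -0.0781 (WT 24 h minus 3 h), -0.0991 (CIZ1 KO 24 h minus 0 h) and -0.116 (CIZ1 KO NPC minus 24 h). It was also lost for Nkap in the 24 h levels of SpenKO minus WT (0.0850) and SPOCmut minus WT (0.0877), for Rpl10 in the response of SpenKO minus WT (0.0702) and for Rbmx in that of SPOCmut minus SpenKO (-0.0760). With the libraries of the comparison alone, fewer by construction, Nkap lost the calls at -0.0781, -0.0991, -0.116 and 0.0850.

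With a replicate block in every line, the response of SpenKO minus WT for Rpl10 (0.0702, limma adjusted p = 0.0519) and of SPOCmut minus SpenKO for Rbmx (-0.0760) lost the call, and that of SPOCmut minus WT for Nkap (0.0941) gained it. Under it the sign turned for Rbm10 in SPOCmut minus WT at 0 h (0.000973) and for Nkap in SPOCmut minus SpenKO at 24 h (-0.00911), neither past the test. It changed no other call of a member. Numbers in the other lines only name libraries, with correlations of same-numbered deviations between -0.107 and 0.161. A clone block alone ended the call of Rbmx (-0.0760) and no other. Crossed CIZ1 KO numbers gave 217 calls at 24 h, against 216 without a block and 218 with it.

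Left-out libraries moved these values, given as lowest and highest. For Nkap they were -0.135 and -0.0759 (WT 24 h minus 0 h), -0.108 and -0.0487 (WT 24 h minus 3 h), -0.135 and -0.0636 (CIZ1 KO 24 h minus 0 h), -0.0285 and 0.00652 (SPOCmut 24 h minus 0 h), and -0.152 and -0.0806 (CIZ1 KO NPC minus 24 h). Nkap levels at 24 h ran between 0.0556 and 0.114 (SpenKO minus WT), 0.0583 and 0.117 (SPOCmut minus WT), -0.0112 and 0.0205 (SPOCmut minus SpenKO), and -0.0214 and 0.0496 (CIZ1 KO minus WT). Nkap responses ran between 0.0287 and 0.0934 (SpenKO minus WT), 0.0647 and 0.123 (SPOCmut minus WT), and -0.0293 and 0.0418 (CIZ1 KO minus WT). Nkap levels at 0 h ran between -0.00839 and 0.0563 (SpenKO minus WT), -0.0241 and 0.0109 (SPOCmut minus WT), and -0.00267 and 0.0184 (CIZ1 KO minus WT).

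For Rpl10 the values were -0.0158 and 0.00607 (SpenKO 24 h minus 0 h), -0.0382 and -0.00669 (SPOCmut 24 h minus 0 h), 0.0593 and 0.0811 (response, SpenKO minus WT), 0.0369 and 0.0683 (response, SPOCmut minus WT), and 0.0453 and 0.107 (CIZ1 KO minus WT at 0 h). Other differences that did not pass the test also moved by over 1.5 times. The SpenKO minus WT call of Rpl10 was lost without either WT 0 h library, the second WT 24 h library, the first SpenKO 0 h library or the second SpenKO 24 h library (limma adjusted p between 0.0744 and 0.117). Nkap passed in SPOCmut minus WT without the first WT 24 h library, clone C10 at 24 h or clone G1 at 0 h, and Rpl10 without clone C2 at 0 h. For Rbmx they were -0.0884 and -0.0661 (response, SPOCmut minus SpenKO; the call held only without clone C2 at 0 h or at 24 h), -0.0269 and 0.0114 (CIZ1 KO minus WT at 0 h) and -0.00180 and 0.0130 (SpenKO 3 h minus 0 h). For Rbm10 they were -0.0212 and 0.00264 (SPOCmut minus WT at 0 h), -0.0227 and 0.00115 (CIZ1 KO minus WT at 0 h) and -0.00783 and 0.0150 (CIZ1 KO minus WT at 24 h).

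Counts of genes moved by over 1.5 times for WT at 3 h (60 in both directions, 2 with the libraries of the comparison alone), SpenKO at 24 h (2, between 0 and 3), SPOCmut minus SpenKO at 24 h (113, 67 by Benjamini-Yekutieli), its response (62, 34 likewise), the SpenKO minus WT response at 3 h (7, 0 with the libraries alone), SpenKO at 3 h (1, between 0 and 2), and CIZ1 KO minus WT (0, 2 in response and 4 at 0 h without the first CIZ1 KO 0 h library).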
